A study of Mus musculus with 48 samples.

Results

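The genes described are 8 liver genes of sugar entry, fructose use and glycolysis: Slc2a2, Gckr, Khk, Tkfc, Pfkfb1, Pfkfb3, Pfkl and Pklr. They were taken by symbol from the 14251 genes of the deposited tables, and all 8 passed the filter on low counts. Liver RNA of 48 male C57BL6J mice, 1 library each, was read at the 3′ ends of transcripts with QuantSeq. Mice drank water with corticosterone, the main glucocorticoid of rodents, or with vehicle for 2 weeks, and part of each set ate atglistatin, an inhibitor of the triglyceride lipase ATGL. Cort ATGLi mice (14) had corticosterone at 100 ug/ml and food with 571 mg/kg atglistatin. Cort CON mice (14) had the same corticosterone dose and control food. EtOH ATGLi mice (10) had 1% ethanol as vehicle and the atglistatin food. EtOH CON mice (10) had 1% ethanol and control food. Each mouse also carries a fed glucose label and an insulin label, both without a unit, and a disease label, diabetic or nondiabetic. The diabetic label was given to 9 Cort CON mice and 1 Cort ATGLi mouse, and to 0 of the EtOH mice.

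Liver cells take up glucose and fructose through low-affinity carriers and trap them by phosphorylation. Glucose passes through the regulated phosphofructokinase step, whereas fructose enters below that step after ketohexokinase, triokinase and other enzymes have acted on it, and both routes end at pyruvate kinase. Several of these genes are textbook targets of insulin and of the carbohydrate-response factor ChREBP, encoded by Mlxipl.

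Total counts per library ran from 7449109 to 21175603. The summed level of 5 hepatocyte markers (Alb, Apoa1, Ttr, Tat and Cps1) lay between 69332 and 132720 CPM over all groups (CPM are counts scaled to a common library total), with 0 of the 5 at 0. Medians were 97678 CPM in Cort ATGLi, 113570 CPM in Cort CON, 90556 CPM in EtOH ATGLi and 96582 CPM in EtOH CON livers. On the control diet 2 of the 5 were called higher under corticosterone (median log2 change 0.34), and on the atglistatin diet 0 (median 0.12). Between Cort ATGLi and Cort CON livers 1 of the 5 was called lower (median -0.21). In bulk liver, fewer cells of a type and less RNA per cell cannot be told apart. The summed level of 6 Kupffer cell markers had medians of 50.4 CPM in Cort ATGLi, 64.4 CPM in Cort CON, 130.1 CPM in EtOH ATGLi and 156.6 CPM in EtOH CON livers, with 5 of 6 called lower under corticosterone on each diet. The highest Cort ATGLi sum, 236.9 CPM, nevertheless lay above the highest of EtOH ATGLi (163.8 CPM) and EtOH CON livers (211.1 CPM). Lymphocyte and endothelial sums also fell. The lymphocyte sum had medians of 1.91 CPM in Cort ATGLi, 1.90 in Cort CON, 9.92 in EtOH ATGLi and 10.9 in EtOH CON livers. Of 2 lymphocyte markers tested, 2 were called lower on each diet. The endothelial sum had medians of 114 CPM in Cort ATGLi, 122 in Cort CON, 168 in EtOH ATGLi and 166 in EtOH CON livers. Of 6 endothelial markers, 6 were called lower on the atglistatin diet and 3 on the control diet. Of 6 stellate markers, 4 were called lower and 1 higher on the control diet, and 3 lower on the atglistatin diet. The cholangiocyte sum had higher medians under corticosterone. They were 49.012 CPM in Cort ATGLi, 67.309 in Cort CON, 33.466 in EtOH ATGLi and 50.01 in EtOH CON livers. Of 5 cholangiocyte markers, 1 was called higher on each diet and 2 lower on the control diet. Of 6 pericentral hepatocyte markers, 4 were called lower in Cort ATGLi than in EtOH ATGLi livers and 3 lower and 2 higher in Cort CON than in EtOH CON livers. Their summed level in Cort ATGLi livers ran from 832.5 to 4602.7 CPM, with a median of 3803.3 CPM. The part of these shifts in the results was not tested. Pancreatic acinar markers were raised in 6 libraries with Cpa1 above 20 CPM (Cort CON 30, EtOH ATGLi 06 and 11, and EtOH CON 09, 10 and 15). The log2 ratio of the clock genes Dbp and Arntl, used as a clock index, averaged 0.57 ± 1.27 in Cort ATGLi, -1.88 ± 1.15 in Cort CON, 2.98 ± 2.11 in EtOH ATGLi and -0.87 ± 1.74 in EtOH CON livers (SD, n = 14, 14, 10 and 10). With 1 slope on this index shared by the groups, edgeR called none of the 8 genes, against 2.25% of all genes, with 1 of 8 at an unadjusted p under 0.05. Each group was also fitted alone, after the data had been seen. In EtOH CON livers Pfkfb3 (0.52 ± 0.13 per unit), Slc2a2 (0.22 ± 0.07), Khk (0.12 ± 0.05), Pklr (0.15 ± 0.06) and Tkfc (0.07 ± 0.03) had an unadjusted p under 0.05. Their adjusted p ran from 0.353 (Pfkfb3) to 0.633 (Tkfc). Gckr, Pfkl and Pfkfb1 had 0.02, -0.01 and 0.04 there. Pklr had -0.21 ± 0.09 in Cort CON livers (edgeR, adjusted p = 0.211). Libraries Cort ATGLi 26 and Cort ATGLi 41 stood at opposite ends of their group for several of the 8 genes. Library 41 was also the highest or lowest of its group for other pathway genes, named below. The insulin slopes and insulin correlations of members that rest on libraries 26 and 41 are given with and without them.

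All 8 genes are protein coding and are placed by GENCODE M21 on GRCm38. Khk (chr5:30921431-30931248) and Gckr (chr5:31297443-31327314) lie on the plus strand of the same chromosome, and Pklr (chr3:89136142-89146784) and Slc2a2 (chr3:28697903-28731359) share another. Pfkfb1 lies at chrX:150588229-150643878 and Pfkfb3 at chr2:11471433-11554077. Pfkl lies at chr10:77986947-78010083 and Tkfc at chr19:10587791-10605654. RefSeq (GRCm38.p6) lists 13 start windows for the 8 genes, and the 250 bases before each start were searched on both strands for 4 motifs. The windows of the 3 genes with the largest corticosterone changes on the control diet (Pklr, Tkfc and Khk) and of the regulator gene Gckr are shown here 5′ to 3′ on the strand of the gene. Capitals mark a ChREBP carbohydrate response element (ChoRE) in Pklr, an E-box (CACGTG) and an HNF1 half-site (GTTAAT) in Khk, and a glucocorticoid half-site (TGTTCT) and an HNF1 half-site (GTTAAT) in Gckr. The Tkfc window holds none of the 4.
Pklr chr3:89136373-89136622: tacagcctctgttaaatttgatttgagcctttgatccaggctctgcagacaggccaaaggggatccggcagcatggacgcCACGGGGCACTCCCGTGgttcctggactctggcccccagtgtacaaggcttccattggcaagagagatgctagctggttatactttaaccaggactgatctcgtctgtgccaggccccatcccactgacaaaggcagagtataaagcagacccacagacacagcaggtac
Khk chr5:30921309-30921558: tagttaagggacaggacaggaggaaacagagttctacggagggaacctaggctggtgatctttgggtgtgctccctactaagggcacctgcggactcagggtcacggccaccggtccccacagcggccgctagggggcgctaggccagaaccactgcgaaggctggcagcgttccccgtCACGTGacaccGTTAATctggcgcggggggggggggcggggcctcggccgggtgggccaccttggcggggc
Tkfc chr19:10604259-10604508: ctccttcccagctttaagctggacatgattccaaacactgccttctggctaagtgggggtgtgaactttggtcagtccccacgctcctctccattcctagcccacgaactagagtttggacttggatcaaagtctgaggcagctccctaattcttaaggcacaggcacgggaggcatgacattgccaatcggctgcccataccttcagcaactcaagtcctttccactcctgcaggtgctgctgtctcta
Gckr chr5:31297313-31297562: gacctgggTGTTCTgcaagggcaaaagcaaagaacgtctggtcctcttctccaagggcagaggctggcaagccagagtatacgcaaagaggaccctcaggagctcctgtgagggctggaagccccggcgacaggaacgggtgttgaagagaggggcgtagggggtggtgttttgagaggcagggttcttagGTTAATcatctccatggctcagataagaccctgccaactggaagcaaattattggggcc
The Pklr ChoRE begins 170 bases before the downstream of 2 listed starts, the one that is known as the liver start, and the window of the upstream start holds none. Of all 32851 RefSeq windows of this length, 0.0974% hold the ChoRE, 6.02% the E-box, 6.43% the HNF1 half-site and 16.1% the glucocorticoid half-site. An E-box was also found 53 bases before 1 of the 2 Pfkfb3 starts and an HNF1 half-site 114 bases before 1 of the 4 Pfkfb1 starts. These matches describe letters in a window, and 3′ reads do not tell the starts of a gene apart. Genes on the opposite strand overlap 5 of the 8, among them Hcn3 at the 3′ end of Pklr and Cyb561a3 at the 3′ end of Tkfc, and whether the counting used strand is not given in the sources used here.

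Corticosterone raised most of the 8 genes. They were chosen with earlier results of these data known, so the shares set beside all genes are descriptive. On the control diet 7 of 8 were called higher in Cort CON than in EtOH CON livers (all but Pfkl), where 22.5% of the 12688 genes tested were called higher and 21.7% lower. The median log2 change of the 8 was 1.20, beside 0.01 for all genes. The individual libraries of Cort CON and EtOH CON did not overlap for 4 of 8 (Pklr, Pfkfb1, Khk and Tkfc), against 6.11% of all genes. On the atglistatin diet 5 of 8 were called higher in Cort ATGLi than in EtOH ATGLi livers (Pklr, Pfkfb1, Slc2a2, Khk and Tkfc), where 19% of all genes were called higher and 17.7% lower. Tkfc was the only member without overlap in that comparison, against 3.14% of all genes, and the median log2 change of the 8 was 0.88. A call means an adjusted p of at most 0.05 from edgeR's quasi-likelihood test, and log2 changes are given with their standard error.

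**Figure D1:**
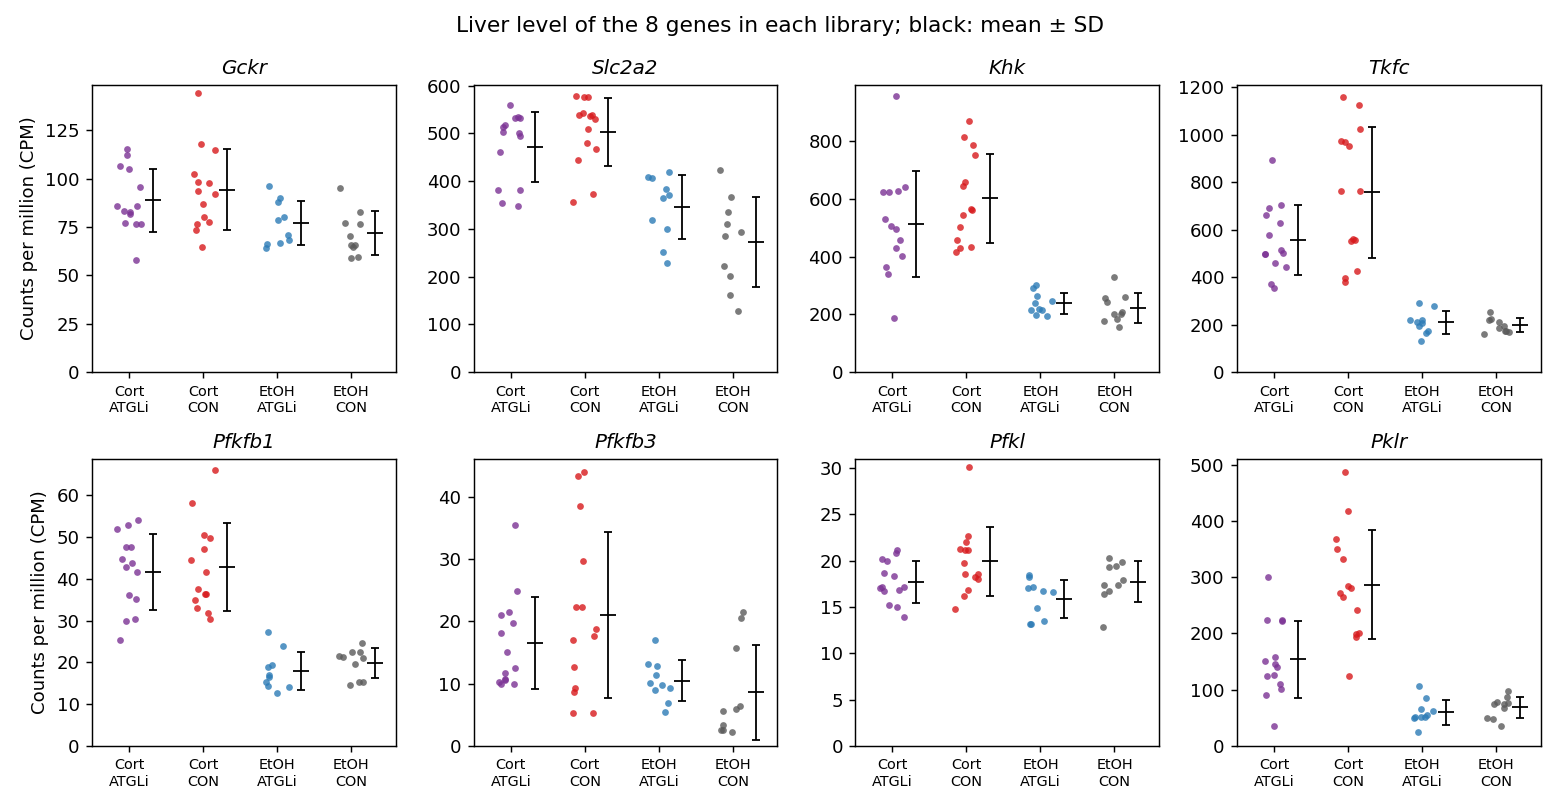
Level of each gene in every library, in CPM from 0 on the y axis, by treatment group on the x axis; black marks give the mean and SD of each group. Tkfc in the 28 corticosterone libraries lies above all 20 vehicle libraries, whereas Pfkl overlaps in all 4 groups.

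The fructose genes Khk and Tkfc both rose under corticosterone on each diet. Khk encodes ketohexokinase, which phosphorylates fructose. It had a lowest, median and highest level of 188, 501 and 954 CPM in Cort ATGLi and 415, 562 and 871 CPM in Cort CON livers. Vehicle livers gave 194, 229 and 299.9 CPM (EtOH ATGLi) and 155, 205 and 328 CPM (EtOH CON). The Cort CON range lay above the whole EtOH CON range, and in Cort ATGLi a single library, number 41 at 188 CPM, fell among the vehicle livers. Khk was 2.72-fold higher in Cort CON than in EtOH CON livers (log2 change 1.44 ± 0.16, adjusted p = 4.1e-10, 14 of 14 libraries above the EtOH CON mean) and 2.15-fold higher in Cort ATGLi than in EtOH ATGLi livers (1.11 ± 0.16, adjusted p = 3.13e-07, 13 of 14).

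Tkfc encodes triokinase, which phosphorylates the glyceraldehyde released from fructose. Its level was 355, 508 and 895 CPM in Cort ATGLi and 379, 764 and 1158 CPM in Cort CON livers, given as lowest, median and highest. EtOH ATGLi livers had 132, 209.9 and 292 CPM and EtOH CON livers 161, 191 and 255 CPM. Both corticosterone ranges lay above both vehicle ranges. The gene rose 3.85-fold in Cort CON over EtOH CON livers (log2 change 1.94 ± 0.17, adjusted p = 4.46e-13) and 2.66-fold in Cort ATGLi over EtOH ATGLi livers (1.41 ± 0.17, adjusted p = 3.46e-09), with 14 of 14 libraries above the vehicle mean in each.

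Pklr, the liver and red cell pyruvate kinase that closes glycolysis, had the largest log2 change of the 8 on the control diet. Lowest, median and highest levels were 34.8, 143 and 300.0 CPM in Cort ATGLi and 125, 276 and 488 CPM in Cort CON livers. They were 24.4, 52.7 and 106 CPM in EtOH ATGLi and 35.1, 74.4 and 97.4 CPM in EtOH CON livers. Every Cort CON library exceeded every EtOH CON library, and the lowest Cort ATGLi libraries overlapped both vehicle groups. Pklr was 4.17-fold higher in Cort CON than in EtOH CON livers (log2 change 2.06 ± 0.24, adjusted p = 6.84e-10) and 2.57-fold higher in Cort ATGLi than in EtOH ATGLi livers (1.36 ± 0.23, adjusted p = 5.96e-06). Red cells also use Pklr, and the sum of 5 erythroid markers had medians of 1408 CPM in Cort ATGLi, 2130 CPM in Cort CON, 1396 CPM in EtOH ATGLi and 1402 CPM in EtOH CON livers. On the control diet 3 of those 5 were called higher under corticosterone (median log2 change 0.60), and on the atglistatin diet edgeR called 0 of 5 (median 0.20). Between Cort ATGLi and Cort CON livers 1 of 5 was called lower (median -0.43). Their part in the Pklr values was not tested. The muscle-type pyruvate kinase gene Pkm, named here after its values were seen, fell by a log2 change of 0.49 (adjusted p = 0.00753) on the control diet. In the same comparison 5 of 6 Kupffer cell, 2 of 2 lymphocyte and 3 of 6 endothelial markers were called lower. The part of those cells in the Pkm fall was not tested.

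The phosphofructokinase step was uneven. Pfkfb1, the liver enzyme that makes and removes the allosteric activator fructose 2,6-bisphosphate, had 25.3, 43.4 and 54.2 CPM in Cort ATGLi and 30.5, 39.6 and 66.1 CPM in Cort CON livers (lowest, median, highest). Vehicle values were 12.6, 16.8 and 27.4 CPM in EtOH ATGLi and 14.6, 21.1 and 24.5 CPM in EtOH CON livers. Cort CON and EtOH CON did not overlap, and 1 Cort ATGLi library, number 25, lay within the EtOH ATGLi range. Pfkfb1 rose 2.16-fold in Cort CON over EtOH CON livers (log2 change 1.11 ± 0.14, adjusted p = 2.89e-09) and 2.33-fold in Cort ATGLi over EtOH ATGLi livers (1.22 ± 0.14, adjusted p = 5.52e-10).

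Pfkfb3 encodes an isoform of the same enzyme that mainly makes the activator. Its level scattered widely, with 9.92, 13.7 and 35.4 CPM in Cort ATGLi and 5.26, 18.2 and 43.96 CPM in Cort CON livers. In EtOH ATGLi it was 5.37, 9.91 and 16.95 CPM, and in EtOH CON 2.21, 5.73 and 21.5 CPM. Within EtOH CON, 3 libraries had 15.7 to 21.5 CPM and the other 7 had 2.21 to 6.37 CPM, so the groups overlapped. Pfkfb3 was called higher in Cort CON than in EtOH CON livers (log2 change 1.30 ± 0.35, adjusted p = 0.00222) and missed the threshold in Cort ATGLi against EtOH ATGLi livers (0.65 ± 0.34, adjusted p = 0.129), although a fit of those groups alone called it (0.63 ± 0.21, adjusted p = 0.0218). Pfkl, the liver phosphofructokinase subunit itself, stayed between 12.8 and 30.2 CPM over all 48 libraries, with group means of 17.7 ± 2.25 in Cort ATGLi, 19.96 ± 3.74 in Cort CON, 15.9 ± 2.07 in EtOH ATGLi and 17.8 ± 2.19 CPM in EtOH CON livers (SD, n = 14, 14, 10 and 10). Its change was 0.17 ± 0.09 (adjusted p = 0.106) on the control diet and 0.16 ± 0.09 (adjusted p = 0.159) on the atglistatin diet, neither of them called.

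Slc2a2 encodes GLUT2, the low-affinity hexose carrier of hepatocytes. Its lowest, median and highest levels were 348, 502 and 559.9 CPM in Cort ATGLi and 356, 534 and 579 CPM in Cort CON livers. EtOH ATGLi livers had 228, 368 and 419.6 CPM, and EtOH CON livers 127, 289 and 423 CPM. The groups overlapped, although 14 of 14 libraries of each corticosterone group lay above the mean of the vehicle group on the same diet. Slc2a2 rose 1.85-fold in Cort CON over EtOH CON livers (log2 change 0.89 ± 0.13, adjusted p = 3.34e-07) and 1.37-fold in Cort ATGLi over EtOH ATGLi livers (0.45 ± 0.13, adjusted p = 0.00568).

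Gckr encodes a nuclear regulatory protein of hepatic glucose phosphorylation that acts when sugar is low. It ranged from 57.8 to 115 CPM in Cort ATGLi (median 84.4) and from 64.8 to 144 CPM in Cort CON (median 92.9), beside 64.3 to 96.1 CPM in EtOH ATGLi (median 74.7) and 58.9 to 95.1 CPM in EtOH CON livers (median 68.1). All groups overlapped. Gckr was 1.32-fold higher in Cort CON than in EtOH CON livers (log2 change 0.40 ± 0.11, adjusted p = 0.00215, 13 of 14 libraries above the EtOH CON mean), and 0.21 ± 0.11 (adjusted p = 0.127) on the atglistatin diet was not called. Without the 10 libraries labelled diabetic the control-diet value was 0.21 ± 0.12 (adjusted p = 0.211). No other of the 7 calls on the control diet was lost in that fit, nor in the fit without the 6 libraries with acinar markers.

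**Figure D2:**
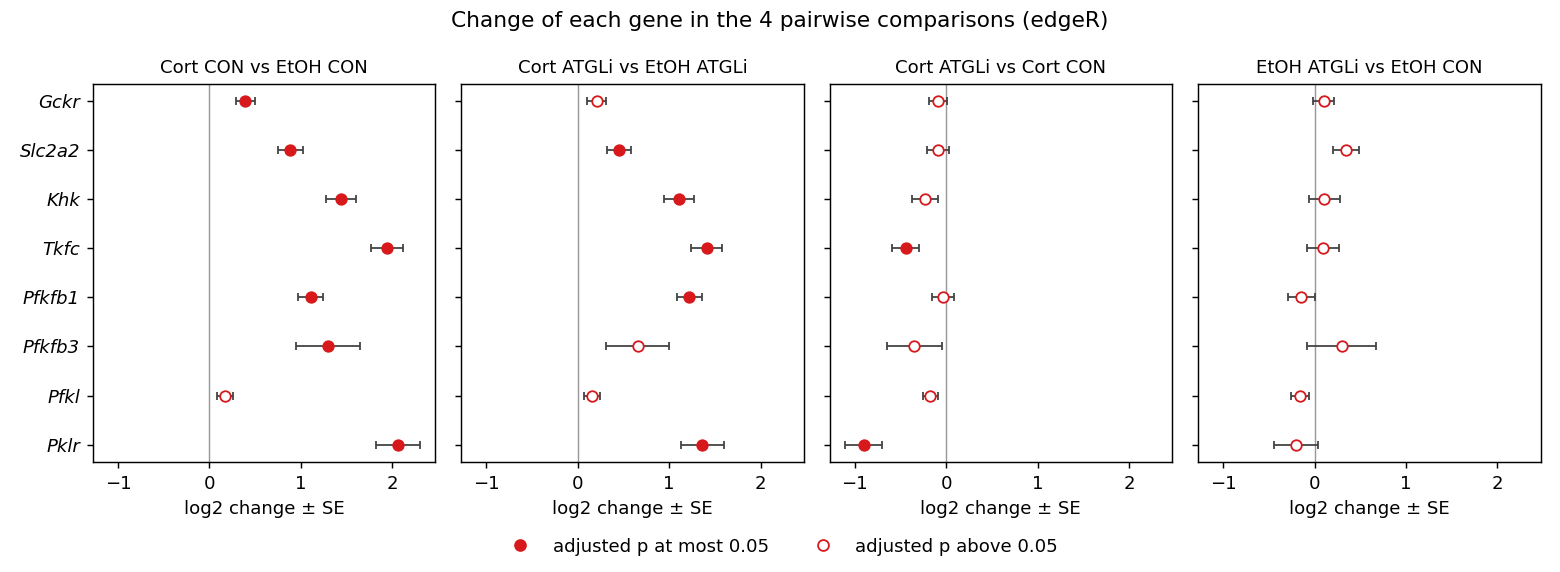
Log2 change with its standard error (x axis) of each gene (y axis) in 4 comparisons; filled points have an adjusted p of at most 0.05 and open points do not. Filled points lie right of 0 in both corticosterone comparisons, and Pklr and Tkfc are the filled points left of 0 for Cort ATGLi against Cort CON.

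Atglistatin alone moved none of the 8 past the threshold. Between EtOH ATGLi and EtOH CON livers edgeR called 0 of 8, with 1 at an unadjusted p under 0.05, DESeq2 called 0 and limma voom 1, and edgeR called 3.13% of all genes in either direction. The gene at issue was Slc2a2, at 345 ± 67.5 CPM in EtOH ATGLi and 273 ± 93.7 CPM in EtOH CON livers (SD, n = 10 each). Its log2 change was 0.34 ± 0.14 (adjusted p = 0.195) by edgeR and 0.49 ± 0.14 (adjusted p = 0.0187) by voom with sample weights. The ranges overlapped for every member, and 0.252% of all genes had none.

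Under corticosterone, atglistatin lowered 2 of 8, with 6.47% of all genes called lower and 5.19% higher. Pklr averaged 154 ± 68.3 CPM in Cort ATGLi and 287 ± 97.2 CPM in Cort CON livers (SD, n = 14 each), a 1.87-fold lower level (log2 change -0.90 ± 0.20, adjusted p = 0.00171), and 13 of 14 Cort ATGLi libraries lay below the Cort CON mean. Tkfc averaged 556 ± 147 CPM in Cort ATGLi and 757 ± 277 CPM in Cort CON livers (log2 change -0.44 ± 0.15, adjusted p = 0.0415, 13 of 14 below the mean). The ranges of both genes overlapped between these groups, as they did for the other 6 members, against 0.323% of all genes without overlap. Without the 10 libraries labelled diabetic, Pklr stood at -0.86 ± 0.27 (adjusted p = 0.0525) and Tkfc at -0.18 ± 0.16 (adjusted p = 0.641), so that 0 of 8 were called. The Tkfc call was lost when any of 12 single libraries was left out (Cort ATGLi 13, 14, 23, 25 and 48 and Cort CON 27, 30, 34, 35, 36, 37 and 45), with adjusted p up to 0.073. It was also lost in a fit of the compared groups alone (-0.44 ± 0.17, adjusted p = 0.0889), without the libraries with acinar markers (-0.40 ± 0.15, adjusted p = 0.0753) and with the clock index as a covariate (-0.36 ± 0.18, adjusted p = 0.261).

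The remaining 6 had log2 changes of -0.04 ± 0.12 (Pfkfb1) to -0.35 ± 0.30 (Pfkfb3) between Cort ATGLi and Cort CON livers and were not called. Whether corticosterone acted differently on the atglistatin diet was tested as an interaction. It was called for 0 of 8 by edgeR, DESeq2 and voom, with 3 of 8 at an unadjusted p under 0.05 and 1.43% of all genes called. Those 3 were Pklr (-0.70 ± 0.32, adjusted p = 0.35), Tkfc (-0.53 ± 0.23, adjusted p = 0.312) and Slc2a2 (-0.43 ± 0.18, adjusted p = 0.304).

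Mice given both agents were also set against mice given neither. In Cort ATGLi against EtOH CON livers 7 of 8 were called higher, with 22.2% of all genes called higher and 21.4% lower, and Tkfc (2.83-fold, adjusted p = 4.61e-10) and Pfkfb1 (2.11-fold, adjusted p = 7.26e-09) had ranges without overlap, against 5.03% of all genes. Pfkl differed by -0.001 ± 0.087 (adjusted p = 0.992). The calls of Gckr (0.31 ± 0.11, adjusted p = 0.0168) and Pfkfb3 (0.95 ± 0.35, adjusted p = 0.024) depended on single libraries. Gckr was lost without the acinar libraries (0.27 ± 0.12, adjusted p = 0.0753) and without Cort ATGLi 13, 24 or 26 or EtOH CON 03 or 09 (adjusted p up to 0.0595), and Pfkfb3 without Cort ATGLi 40 or EtOH CON 01, 02, 03, 04 or 11 (adjusted p up to 0.0606).

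By mean level, every member but Pfkl ran in the order Cort CON, Cort ATGLi and then the vehicle groups. Within that order, Cort CON and Cort ATGLi did not differ by the test for Gckr, Pfkfb1, Pfkfb3, Slc2a2 and Khk. The vehicle groups did not differ by the edgeR test for any of the 8, with EtOH ATGLi the higher by mean for Gckr, Pfkfb3, Slc2a2, Khk and Tkfc and EtOH CON for Pklr, Pfkfb1 and Pfkl. Pfkl was highest in Cort CON and lowest in EtOH ATGLi livers, with none of its neighbours apart by the test.

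The livers of Cort CON mice labelled diabetic (9) were set against those labelled nondiabetic (5). Among the latter, Cort CON 36 had a glucose label of 242, whereas Cort CON 29, 32, 33 and 49 had 131 to 145. Mouse 36 also had the highest Pklr (418 CPM), Slc2a2 (579 CPM), Khk (565 CPM) and Tkfc (969 CPM) of the nondiabetic mice. EdgeR called 0 of 8, and 0% of the 12003 genes tested; 448 of those genes and 1 of the 8 had an unadjusted p under 0.05, and DESeq2 and voom called 0 genes as well. That member was Khk, at 415 to 871 CPM (median 657) in diabetic and 431 to 565 CPM (median 456) in nondiabetic mice, with a log2 change of 0.44 ± 0.16 (adjusted p = 0.992). Tkfc averaged 842 ± 280 CPM in diabetic and 604 ± 218 CPM in nondiabetic mice (SD, n = 9 and 5), a change of 0.47 ± 0.26 (adjusted p = 0.992). Both genes overlapped between the labels.

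Insulin labels had medians of 13.8 in Cort ATGLi, 37.8 in Cort CON, 1.03 in EtOH ATGLi and 2.39 in EtOH CON mice, and 9 of 14 Cort CON labels lay between 36.7 and 39.8. With a mean for each group and a common slope, 3 of 8 rose with the insulin label, against 3.48% of all genes with a called positive slope and 4.62% with a negative one. Per doubling of the label, Khk rose by 0.31 ± 0.06 on the log2 scale (adjusted p = 5.53e-04), Gckr by 0.18 ± 0.04 (adjusted p = 0.00355) and Pklr by 0.32 ± 0.09 (adjusted p = 0.0272). Tkfc had 0.16 ± 0.07 (adjusted p = 0.13), and Slc2a2, the carrier, had 0.002 ± 0.059 (adjusted p = 0.991).

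These slopes leaned on few mice. Cort ATGLi 41 had the lowest insulin label of its group (2.19) and its lowest Gckr (57.8 CPM), Khk (188 CPM) and Pklr (34.8 CPM). Cort ATGLi 26, the mouse of that group labelled diabetic, had the highest insulin label (38.0) and the highest Gckr (115 CPM), Khk (954 CPM) and Pklr (300.0 CPM). Without mouse 41 Khk kept its call, whereas Gckr stood at 0.16 ± 0.05 (adjusted p = 0.0587) and Pklr at 0.22 ± 0.10 (adjusted p = 0.223). Those mice were left out after the data had been seen. Pklr also missed the threshold without Cort ATGLi 26 (0.27, adjusted p = 0.096) or EtOH ATGLi 14 (0.28, adjusted p = 0.0526). Of the 3 slopes it was the one lost under most alternatives: by voom (0.24, adjusted p = 0.15), on the linear label (adjusted p = 0.281), in the corticosterone libraries alone (0.29, adjusted p = 0.0887), without the diabetic libraries (0.34, adjusted p = 0.0571), without the acinar libraries (0.28, adjusted p = 0.063) and with both labels in 1 fit (0.29, adjusted p = 0.126). Gckr was also lost with both labels in 1 fit (0.14, adjusted p = 0.0638). Without mice 26 and 41 together 0 of 8 were called, with Khk at 0.20 ± 0.06 (adjusted p = 0.161).

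**Figure D3:**
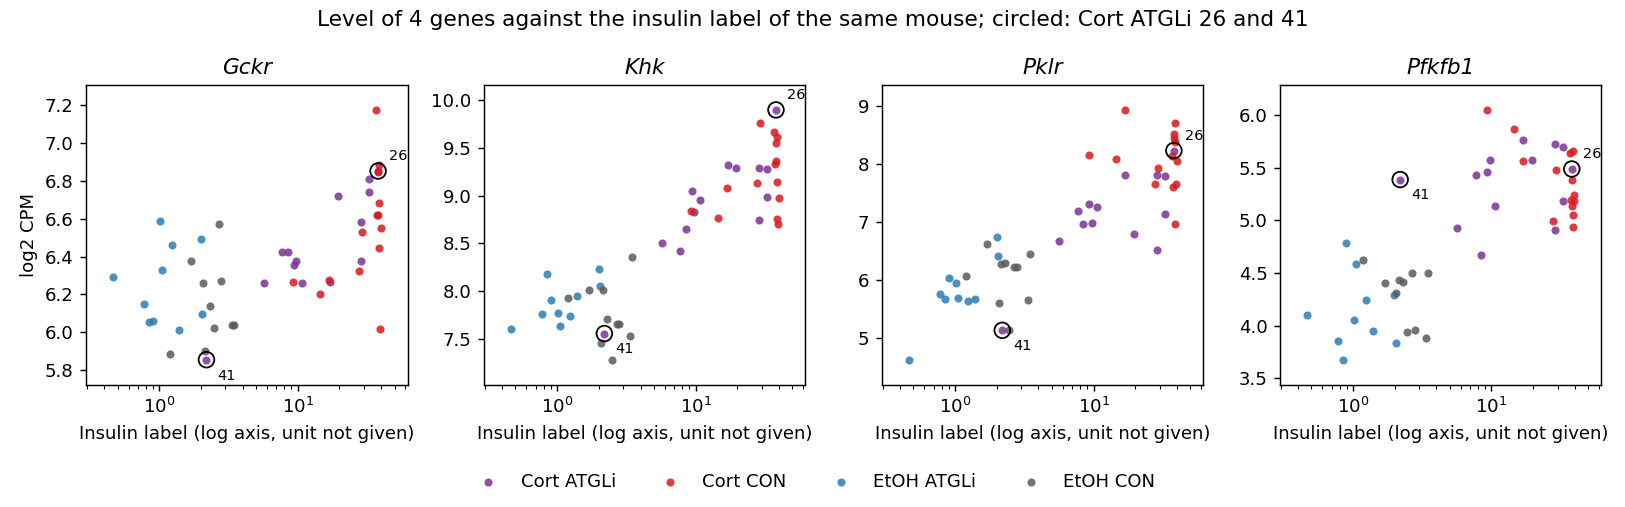
Log2 CPM (y axis) of 4 genes against the insulin label of the same mouse on a log axis (x axis), coloured by group, with Cort ATGLi 26 and 41 circled. Mouse 41 has the lowest Gckr, Khk and Pklr of its group and mouse 26 the highest, while neither is extreme for Pfkfb1.

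Fitted in each group alone, a fit added after the data had been seen, the slopes of Gckr (0.19 ± 0.04, adjusted p = 0.00707), Khk (0.40 ± 0.07, adjusted p = 0.00342) and Pklr (0.46 ± 0.11, adjusted p = 0.0232) were called in Cort ATGLi livers, where 5.83% of all genes were called. Without mouse 41 edgeR called 0 of 8 there and 0% of all genes, with Gckr at 0.18 ± 0.05 (adjusted p = 0.108), Khk at 0.33 ± 0.08 (adjusted p = 0.101) and Pklr at 0.31 ± 0.11 (adjusted p = 0.182), and 4 of 8 had an unadjusted p under 0.05. Without mouse 26 Gckr (0.18 ± 0.04, adjusted p = 0.022) and Khk (0.35 ± 0.07, adjusted p = 0.0132) kept their calls and Pklr did not (0.41 ± 0.12, adjusted p = 0.0838). Without both mice edgeR called 0 of 8, with 2 at an unadjusted p under 0.05, Gckr at 0.16 ± 0.05 (adjusted p = 0.421) and Khk at 0.24 ± 0.08 (adjusted p = 0.409). In Cort CON livers Pfkfb1 was called, with a negative slope (-0.36 ± 0.09, adjusted p = 0.0386), against 2.72% of all genes. EdgeR called 0 of 8 and 0% of all genes in EtOH ATGLi and likewise 0 of 8 and 0% in EtOH CON livers. Pklr in EtOH ATGLi livers had a slope of 0.73 ± 0.14 with an adjusted p of 0.357. The difference between the slopes of Cort CON and Cort ATGLi livers was called for 0 of 8, against 1.55% of all genes, with the smallest adjusted p for Pfkfb1 (-0.44 ± 0.13, adjusted p = 0.0775).

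Relations of a member with a label within a group numbered 64, computed on log2 CPM and the linear label with 2-sided permutation tests of 100000 resamples. Glucose in Cort CON mice was taken within the 10 mice with a label above 200. Gckr and insulin in Cort ATGLi mice gave Pearson r = 0.808 (permutation p = 0.00036) and Spearman rho = 0.767 (permutation p = 0.00215, n = 14), and r = 0.713 without the 2 mice farthest from the median label (26 and 17). Adjusted over the 64 relations its p was 0.023, the single one of them at or below 0.05, and r was 0.794 without mouse 41 and 0.728 without mice 26 and 41. Khk and insulin in the same mice gave r = 0.722 (permutation p = 0.00171) and rho = 0.754 (permutation p = 0.00276; 0.0547 for r adjusted over the relations), with r = 0.591 without 26 and 17, 0.695 without 41 and 0.566 without 26 and 41. Pklr gave r = 0.584 (permutation p = 0.0209) and rho = 0.525 (permutation p = 0.0576; 0.194 for r adjusted over the relations) there, with r = 0.391 without 26 and 17, 0.492 without 41 and 0.298 without 26 and 41. In other groups Pklr and insulin gave r = 0.809 in EtOH ATGLi mice (permutation p = 0.00326, adjusted 0.0696; rho = 0.515, n = 10; 0.566 without 2 mice) and r = -0.200 in Cort CON mice (permutation p = 0.485). Tkfc and insulin in EtOH ATGLi mice gave r = 0.736 (permutation p = 0.0148, adjusted 0.190; rho = 0.430, n = 10), and 0.276 without 2 mice. Gckr and glucose in Cort ATGLi mice gave r = 0.628 (permutation p = 0.0212, adjusted 0.194; rho = 0.671), and 0.462 without 2 mice. Pfkfb1 and insulin in Cort CON mice gave r = -0.694 (permutation p = 0.00628) and rho = -0.499 (permutation p = 0.0729; 0.101 for r adjusted over the relations), and r = -0.274 without mice 32 and 33, so the relation rested on those 2.

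Glucose labels averaged 121 ± 29.9 in Cort ATGLi, 244 ± 79.9 in Cort CON, 121 ± 16.5 in EtOH ATGLi and 132 ± 10.9 in EtOH CON mice (SD, n = 14, 14, 10 and 10). The common slope on glucose used all 14 Cort CON mice, although their labels fell into separate clusters below and above 200. That slope was called for 0 of 8 by edgeR and 1 of 8 by voom, with 3 of 8 at an unadjusted p under 0.05 and 0.292% of all genes called by edgeR. Those 3 were Tkfc (0.60 ± 0.15 per doubling, adjusted p = 0.0524), Khk (0.53 ± 0.14, adjusted p = 0.0841) and Gckr (0.36 ± 0.10, adjusted p = 0.0841). Each group was also fitted alone, after the data had been seen, and edgeR called none of the 3 there. Khk had 0.88 ± 0.34 in Cort ATGLi, 0.49 ± 0.14 in Cort CON, 0.10 ± 0.41 in EtOH ATGLi and -1.16 ± 0.72 in EtOH CON livers. In the same order Tkfc had 0.57 ± 0.26, 0.68 ± 0.21, 0.25 ± 0.54 and -0.32 ± 0.57. Gckr had 0.59 ± 0.18, 0.31 ± 0.13, -0.31 ± 0.37 and 1.25 ± 0.54. Tkfc passed the threshold with RLE size factors (0.61 ± 0.15, adjusted p = 0.0485) and, together with Khk, without Cort ATGLi 41 (adjusted p = 0.0417 each).

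How the genes varied together within groups was described over the 48 libraries after removal of group means. The highest of 28 pairwise Pearson correlations of log2 CPM were 0.71 for Khk and Pklr, 0.68 for Pklr and Tkfc and 0.55 for Khk and Tkfc, and 3 of 28 exceeded 0.5. Within single groups, Khk and Pklr had r = 0.89 in Cort ATGLi, 0.32 in Cort CON, 0.69 in EtOH ATGLi and 0.82 in EtOH CON livers. Gckr went with Khk in the corticosterone groups (0.78 in Cort ATGLi and 0.70 in Cort CON) and not in the vehicle groups (-0.26 in EtOH ATGLi and -0.19 in EtOH CON). Pfkl stood apart, with 6 of the 8 negative correlations. The values of a pair come from the same library and share its depth and scaling. Cort ATGLi 26 and 41, the highest and lowest of their group for Gckr, Khk and Pklr, were not left out of these correlations.

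**Figure D4:**
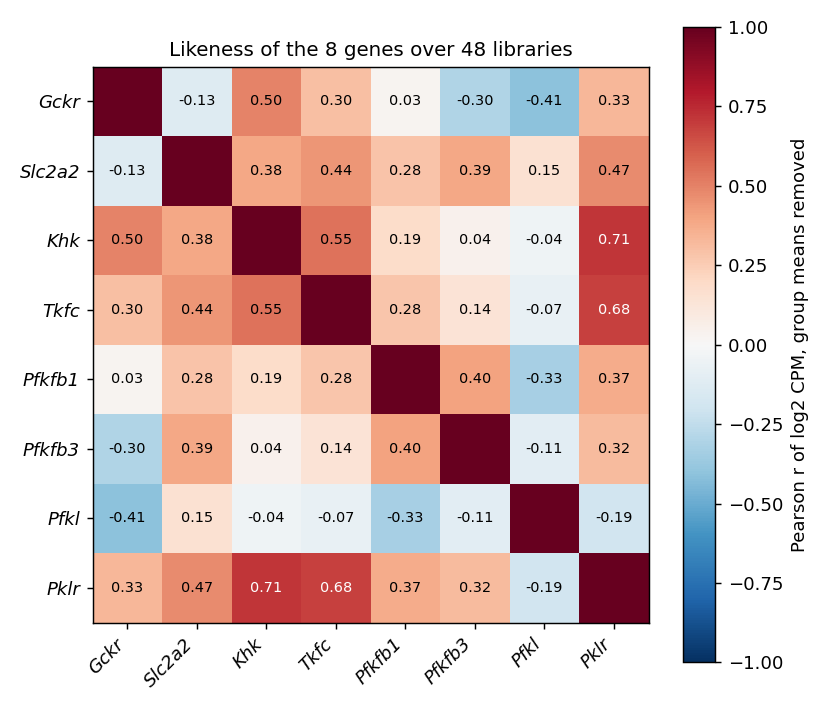
Pearson correlation of log2 CPM between the 8 genes over 48 libraries with group means removed, from -1 (blue) to 1 (red). Khk, Tkfc and Pklr form the block of highest values, 0.55 to 0.71.

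Among 8307 genes with a mean of at least 5 CPM, the 3 whose deviations from the group means were most like those of Pklr were Thrsp (r = 0.81), Pdhb (0.78) and Slc17a8 (0.78). For Tkfc they were Acaca (0.87), Pdhb (0.83) and Ddhd2 (0.82), and for Khk they were Gm35986 (0.82), Dera (0.78) and Fbp1 (0.72). Gckr was most like Gchfr (0.81), Mocs2 (0.81) and Nisch (0.80), and Slc2a2 most like Slc37a4 (0.78), Mia2 (0.73) and Plpp3 (0.71). Pfkl was followed by Cluh (0.78), Mboat7 (0.77) and Uba1 (0.76). The likeness was lower for Pfkfb1, with Chd1l (0.69), Bhmt2 (0.65) and 1810055G02Rik (0.63), and for Pfkfb3, with Klhl2 (0.69), Herpud1 (0.68) and Lurap1l (0.67).

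Other genes of the pathway were followed through a list of 42, also chosen with earlier results known, of which 33 were tested. Corticosterone raised 17 and lowered 6 of the 33 on the control diet (median log2 change 0.24) and raised 13 and lowered 6 on the atglistatin diet (median 0.20), beside medians of 0.01 and 0.02 for all genes. Of all genes, 22.5% were called higher and 21.7% lower on the control diet and 19% higher and 17.7% lower on the atglistatin diet, so the 6 lowered genes are near the background share. The 6 lowered genes were Hk1, Hk2, Hk3, Pfkp, Aldoc and Pkm on both diets, and the 11 raised on both made up 64.7% of the control-diet calls and 84.6% of the atglistatin-diet calls. The hexokinase genes Hk1, Hk2 and Hk3 and the platelet phosphofructokinase gene Pfkp are mainly known from tissues and cells other than hepatocytes, and 5 of 6 Kupffer cell markers were called lower in the same comparisons. Their part in these falls was not tested.

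By smallest p, the control-diet list was led by Aldoc (-1.76 ± 0.17, adjusted p = 6.31e-12), the glycolytic dehydrogenase gene Gapdh (1.12 ± 0.14, adjusted p = 3.19e-09), the insulin-responsive glucose carrier gene Slc2a4 (3.70 ± 0.47, adjusted p = 6.68e-09) and Hk3 (-2.48 ± 0.32, adjusted p = 6.73e-09). On the atglistatin diet Gapdh (1.02 ± 0.14, adjusted p = 5.26e-08), Pfkfb2 (1.14 ± 0.19, adjusted p = 4.82e-06), Pgk1 (0.79 ± 0.14, adjusted p = 1.71e-05) and Glyctk (0.41 ± 0.08, adjusted p = 2.03e-05) led. Mlxipl, the gene of ChREBP, was called in none of the 9 comparisons, and its log2 change was 0.01 ± 0.17 (adjusted p = 0.98) on the control diet and -0.08 ± 0.17 (adjusted p = 0.735) on the atglistatin diet.

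**Figure D5:**
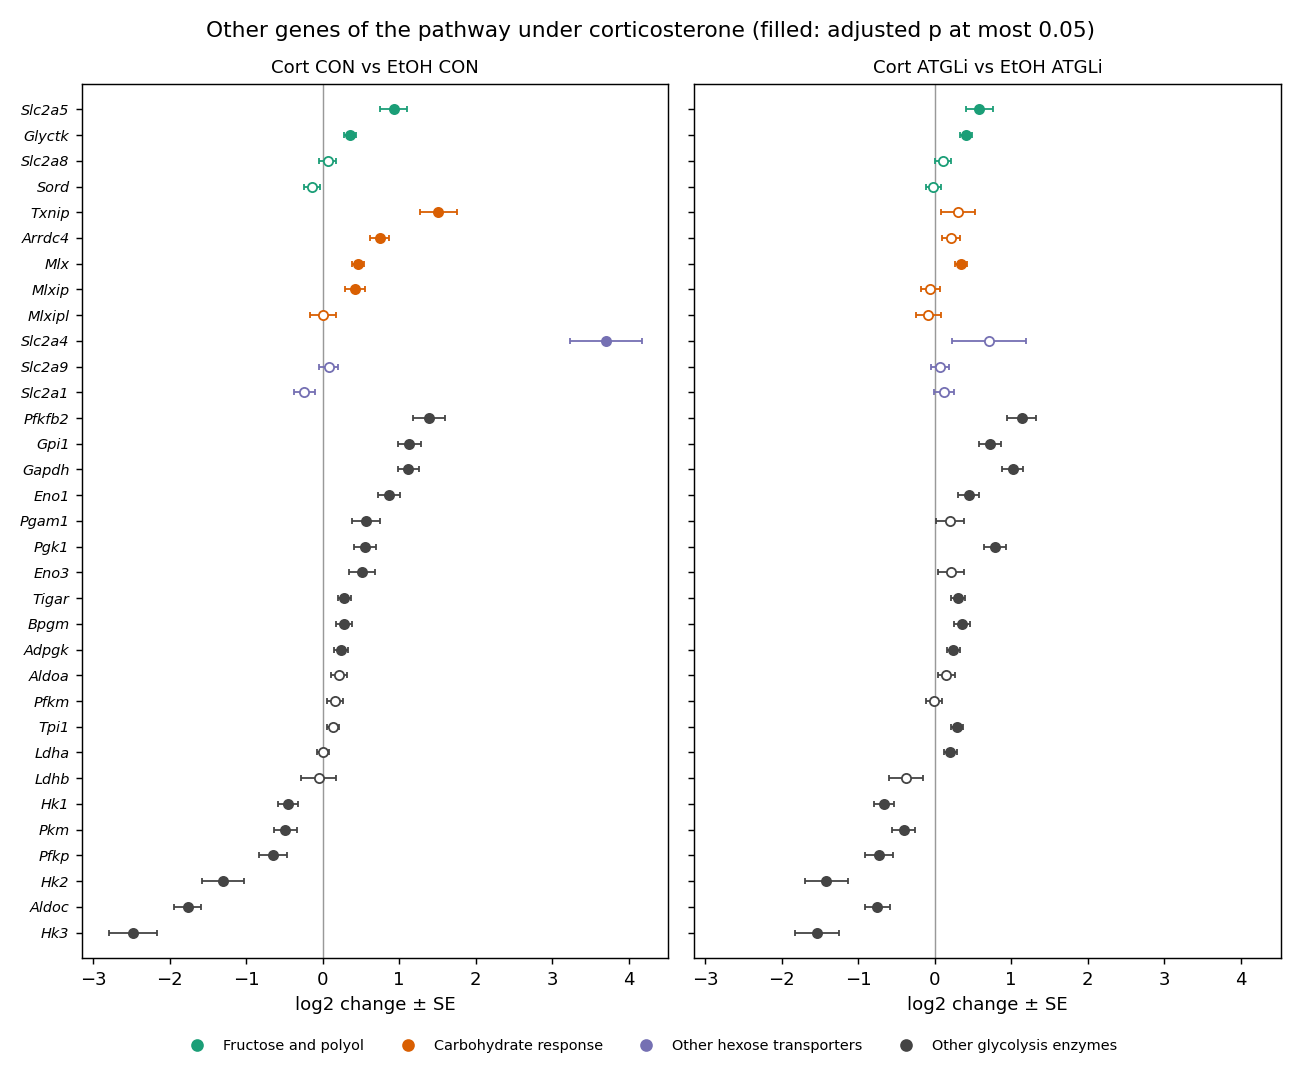
Log2 change with its standard error (x axis) of the 33 other pathway genes tested (y axis) under corticosterone on each diet, coloured by list; filled points have an adjusted p of at most 0.05. Slc2a5 and Glyctk are the filled fructose genes on both diets, and Slc2a4 and Txnip are filled on the control diet alone.

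Atglistatin under vehicle changed 1 of the 33, near the 3.13% of all genes: the arrestin-domain gene Arrdc4 (0.47 ± 0.13, adjusted p = 0.0322). That call was lost, at values of similar size, by voom (0.40, adjusted p = 0.0707), without the acinar libraries (0.45, adjusted p = 0.182) and with the clock covariate (0.61, adjusted p = 0.163). The next by p were Mlxip (0.33 ± 0.14, adjusted p = 0.219), Ldha (-0.18 ± 0.09, adjusted p = 0.306) and Pfkfb2 (0.44 ± 0.23, adjusted p = 0.336). Under corticosterone it raised 3 and lowered 3, with 5.19% of all genes called higher and 6.47% lower, led by Slc2a4 (-2.40 ± 0.34, adjusted p = 7.69e-07), Aldoc (0.86 ± 0.16, adjusted p = 1.93e-04), the glucose-responsive gene Txnip (-0.76 ± 0.21, adjusted p = 0.00975) and the fructose carrier gene Slc2a5 (-0.54 ± 0.15, adjusted p = 0.0156). Without the diabetic libraries Txnip stood at -0.75 ± 0.24 (adjusted p = 0.0605), and with the clock covariate Slc2a5 at -0.58 ± 0.19 (adjusted p = 0.0519). Slc2a4 averaged 0.257 ± 0.181 CPM in Cort ATGLi, 1.45 ± 0.923 CPM in Cort CON, 0.160 ± 0.134 CPM in EtOH ATGLi and 0.111 ± 0.0882 CPM in EtOH CON livers (SD, n = 14, 14, 10 and 10), so its changes rest on few counts. Slc2a4 is known as the carrier of fat and muscle, and the sum of 5 fat or muscle markers had medians of 1.17 CPM in Cort ATGLi, 3.03 CPM in Cort CON, 0.963 CPM in EtOH ATGLi and 1.38 CPM in EtOH CON livers. Of the 2 of those markers tested, 1 was called lower in Cort ATGLi than in Cort CON livers (median log2 change -1.75) and 0 in Cort CON against EtOH CON livers (median 0.55). Their part in the Slc2a4 values was not tested. Against both agents absent, both together raised 14 and lowered 6 of the 33, beside 22.2% of all genes higher and 21.4% lower, led by Pfkfb2 (1.57 ± 0.20, adjusted p = 1.36e-08), Gapdh (0.89 ± 0.14, adjusted p = 5.15e-07), Hk2 (-1.76 ± 0.28, adjusted p = 8.77e-07) and Hk3 (-1.80 ± 0.29, adjusted p = 1.33e-06).

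With the insulin label 2 of the 33 rose and 3 fell, beside 3.48% of all genes called with a positive slope and 4.62% with a negative one. They were led by Pkm (-0.26 ± 0.05, adjusted p = 5.56e-04), Hk2 (-0.37 ± 0.11, adjusted p = 0.0206), Hk3 (-0.41 ± 0.12, adjusted p = 0.0217) and Sord (0.14 ± 0.04, adjusted p = 0.0443). The other was Eno1 (0.17, adjusted p = 0.0498), named after its values were seen. Of the 4 leading genes none was called without Cort ATGLi 41, where Pkm stood at -0.05 ± 0.04 (adjusted p = 0.511). Mouse 41 had the highest Pkm (18.7 CPM, group median 5.51), Hk2 (2.27 CPM, median 0.46) and Hk3 (1.35 CPM, median 0.31) of its group. Its Sord (558 CPM, median 988) and Mlxipl (46.2 CPM, median 91.3) were the lowest. What sets this liver apart was not tested. For the glucose label the 4 smallest p belonged to Gpi1 (0.51 ± 0.13, adjusted p = 0.0592), Arrdc4 (0.37 ± 0.11, adjusted p = 0.127), Aldoc (-0.48 ± 0.19, adjusted p = 0.242) and Hk3 (-0.90 ± 0.36, adjusted p = 0.25), none of them called by edgeR. Gpi1 was called without Cort ATGLi 41 (0.52 ± 0.13, adjusted p = 0.0417). The diabetic label called 0 of the 32 pathway genes tested by edgeR, with 1 at an unadjusted p under 0.05. Gpi1 (0.46 ± 0.21), Eno1 (0.37 ± 0.18), Gapdh (0.35 ± 0.17) and Arrdc4 (0.29 ± 0.16) had the smallest p, each at an adjusted p of 0.992.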

How the data were processed

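The deposited count table holds whole-number counts per gene for 48 libraries. The authors also deposited a table of normalized signal values, which equal the counts divided by 1 size factor per library (largest relative deviation 2.4e-09) and were used for symbols and for 1 alternative. The submitters' processing notes name DESeq2 1.24.0, R 3.6 and genome build GRCm38. Which program aligned or counted the reads, and with what strand option, is not stated there or in the labels. QuantSeq reads the 3′ ends of transcripts, so levels are not scaled by length and were not compared between genes.

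Counts were fitted in edgeR 4.0.16 (R 4.3.3) with filterByExpr (minimum count 10, minimum total 15), TMM factors, all 48 libraries and 1 mean per group, and the quasi-likelihood test, adjusted over the 12688 genes by the method of Benjamini and Hochberg. CPM are counts scaled by the TMM-adjusted library size. Log2 CPM for correlations used a prior count of 2. Slopes used log2 of the label. DESeq2 1.42.0 and limma 3.58.1 served as alternatives, with those given below. The test was first tested on simulated data. Each library has its own glucose and insulin label and was taken as 1 mouse. No batch, cage or date is labelled, so none was tested. No pair of libraries of a group agreed within sampling noise (smallest chi-square per degree of freedom 6.21), and 0 columns were left unmapped. The members and lists were chosen with earlier results of these data known. All 8 members are named in every comparison, of the pathway lists the 4 genes with the smallest p and Mlxipl, and for each member the 3 genes most like it. Genes named outside that rule were chosen after their values were seen (Pkm and the other genes lowered by corticosterone, and Eno1 for the insulin label). Some genes of the lists are not reported here and were left out of the list counts and of the search for like genes, though not of the fits.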

Additional observations from a re-analysis of the deposited data

Results flagged for a closer look

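Pfkl in the library EtOH CON 02 was 12.83 CPM, the lowest of its group by a gap that passed Dixon's 95% critical value for 10 samples. Of 16 groups of 10 libraries so examined (8 genes in EtOH ATGLi and EtOH CON), this was 1, and chance gives about 1 in 20.

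For 3 of the 33 pathway genes the corticosterone change differed between the diets by the interaction test, beside 1.43% of all genes. The log2 difference was 1.02 ± 0.24 for Aldoc (adjusted p = 0.0175), -2.99 ± 0.74 for Slc2a4 (adjusted p = 0.0238) and -1.21 ± 0.32 for Txnip (adjusted p = 0.0414). Aldoc ranged from 2.08 to 12.3 CPM in Cort ATGLi, 2.09 to 5.79 CPM in Cort CON, 7.67 to 13.9 CPM in EtOH ATGLi and 10.3 to 15.4 CPM in EtOH CON livers. Txnip averaged 90.9 ± 33.3 CPM in Cort ATGLi, 155 ± 72.6 CPM in Cort CON, 73.6 ± 30.4 CPM in EtOH ATGLi and 54.2 ± 17.2 CPM in EtOH CON livers (SD, n = 14, 14, 10 and 10). Without the 6 libraries with Cpa1 above 20 CPM none of the 3 was called (Aldoc 1.02, adjusted p = 0.0826; Slc2a4, adjusted p = 0.444; Txnip -1.02, adjusted p = 0.248), and without the libraries labelled diabetic Aldoc (0.96, adjusted p = 0.158) and Txnip (-1.19, adjusted p = 0.08) were not, at values of similar size. With the clock index as a covariate Txnip stood at -1.15 (adjusted p = 0.0704). Arrdc4, the next by p, stood at -0.54 ± 0.17 (adjusted p = 0.1).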

How the results depend on the processing

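Counts of called members were set against the reported count 430 times, often several times from the same alternative fit. They were within 1.5 times the reported count in 402, higher in 7 and lower in 21. A count of 0 against a reported 0 was taken as within 1.5 times, and so was a fall from 3 to 2 or from 7 to 5. The 402 therefore do not tell how often single calls were kept. Most of the 430 come from fits that left out 1 library. Slope fits of 1 group alone, with or without mice 26 and 41, are given below and are not among the 430. The alternative fits of the diabetic label, all within Cort CON, are among them. For atglistatin under vehicle (0) voom called 1. For atglistatin under corticosterone (2) the compared groups alone, the fit without acinar libraries and the clock index as a covariate each called 1, the fit without diabetic libraries 0, and single libraries left out gave 1 to 2. For the insulin slope (3) both labels in 1 fit called 1, Cort CON alone 1, EtOH ATGLi alone 0, EtOH CON alone 0, the fit without Cort ATGLi 26 and 41 0, and single libraries left out gave 1 to 3. The 1 in Cort CON alone was Pfkfb1, with a negative slope, and none of the 3 reported members (Khk, Gckr and Pklr) was called there. Fits of 1 group and those without both mice were chosen after seeing the data, as were the fits without each library in turn. Fitted in Cort ATGLi alone (3) the slope was called for 0 to 2 without mouse 26 or 41 and for 0 without both. For the glucose slope (0) RLE factors, voom, the linear label and the clock index each called 1, the fit without mouse 41 called 2 and that without both mice 0. Of the 64 correlations, adjusted over them, 1 was called, 5 on log2 labels and 0 without mouse 41. In single groups the insulin slope turned its direction for Pklr (Cort CON -0.13, EtOH CON -0.080), Khk (EtOH CON -0.019), Pkm (EtOH CON 0.13), Hk2 (EtOH CON 0.50) and Sord (EtOH ATGLi -0.0040, EtOH CON -0.031). The cause of these changes was not tested. Replicate numbers shared between groups did not pair the libraries: deviations of same-numbered libraries correlated between -0.12 and 0.04. With a replicate block on those libraries alone, 2 pairs, corticosterone on the atglistatin diet called 0 members in place of 5, although the log2 change was not smaller for Pklr (1.84), Pfkfb1 (1.32), Khk (1.32) and Tkfc (1.47) and was for Slc2a2 (0.24); atglistatin under vehicle called 0. The corticosterone calls on the control diet kept their count of 7 without each library in turn, and those of both agents against neither numbered 5 to 7. Depth limits Pfkfb3, with 25 counts in its lowest library.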
